A study of Mus musculus with 9 samples.

Results

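The BCL2 family decides whether the outer mitochondrial membrane of a cell is opened, the step that commits a cell to intrinsic apoptosis. The genes described here are 10 members of this family, taken by symbol from a table of 38293 genes. They comprise 3 anti-apoptotic genes (Bcl2, Bcl2l1 and Mcl1), 2 effector genes (Bax and Bak1) and 5 BH3-only genes (Bcl2l11, Bid, Bbc3, Bmf and Pmaip1). All 10 were found, and all 10 passed the filter on low counts in each comparison of culture states.

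Gene expression was measured by RNA-seq of poly-A RNA in E14, an established mouse embryonic stem cell line of strain 129/Ola, in 3 states with 3 libraries each. Naive cells (mESC-2i) were kept in serum-free N2B27 medium with 10 ng/mL mouse LIF, 1 µM of the MEK inhibitor PD0325901 and 3 µM of the GSK3 inhibitor CHIR99021. Cells that the labels call primed (mESC-ser) were kept on gelatin with 15% foetal bovine serum and 10 ng/mL mouse LIF. Epiblast-like cells (EpiLC) were made from the naive cells on human plasma fibronectin in N2B27 with 20 ng/mL activin A, 12 ng/mL bFGF and 1% KSR, without LIF or the inhibitors, and their time in this medium is not given in the sources used here. All 9 libraries come from 1 cell line. The labels number them as biological replicates but do not say whether these were separate cultures. The p-values thus measure only the spread between these libraries.

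BCL2, BCL-XL (from Bcl2l1) and MCL1 hold the effectors and the BH3-only proteins in check by binding them in a groove on their surface. BAX and BAK, once activated, assemble into pores in the outer mitochondrial membrane, and cytochrome c then leaves the mitochondria to build the apoptosome and activate caspase 9 and the caspases after it. BH3-only proteins respond to stress or loss of survival signals, and they act through the short BH3 helix that fits this groove. Pluripotent stem cells are known for their readiness to die after damage. MEK and ERK signalling is known to act on the abundance of BIM (from Bcl2l11) and of MCL1. The question here is how the transcripts of these opposing genes stood to each other in the 3 states.

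The BH3 region is the element that all 10 members share, and its coding bases are shown because it is the part through which the proteins meet. The pattern searched was leucine, any 3 residues, glycine or alanine, then aspartate, in the reading frame of the longest annotated coding sequence of each gene (GENCODE M21 on GRCm38, the mm10 assembly). It occurred once in each of 9 members. Of 21173 protein-coding genes 5054 held it (23.9%), so the pattern alone does not single out the family. Capitals mark the leucine codon and the codons of the glycine or alanine and the aspartate, and all stretches are coding exon sequence, written 5′ to 3′ on the strand of the gene.
Bcl2 (chr1:106712578-106712607, minus strand): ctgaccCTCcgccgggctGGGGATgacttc
Bcl2l1 (chr2:152829700-152829729, minus strand): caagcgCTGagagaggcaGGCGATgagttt
Mcl1 (chr3:95659430-95659459, plus strand): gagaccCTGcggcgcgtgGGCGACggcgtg
Bax (chr7:45466000-45466029, minus strand): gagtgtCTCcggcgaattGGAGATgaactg
Bak1 (chr17:27022534-27022563, minus strand): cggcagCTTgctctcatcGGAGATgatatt
Bcl2l11 (chr2:128147144-128147173, plus strand): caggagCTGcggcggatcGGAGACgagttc
Bid (chr6:120897292-120897321, minus strand): agacatCTCgcccaaataGGCGATgagatg
Bbc3 (chr7:16313767-16313796, plus strand): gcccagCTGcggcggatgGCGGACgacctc
Bmf (chr2:118545103-118545132, minus strand): agaaagCTTcagtgtattGCAGACcagttc

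In these lines the BH3-only members Bbc3 and Bmf carry an alanine codon in front of the aspartate, and the 7 others carry a glycine codon. The motif starts at residue 94 of 236 in Bcl2, 90 of 233 in Bcl2l1, 194 of 331 in Mcl1, 63 of 192 in Bax and 76 of 209 in Bak1. In the BH3-only members it starts at residue 150 of 196 in Bcl2l11, 90 of 195 in Bid, 141 of 193 in Bbc3 and 224 of 271 in Bmf, counted from the first residue of the annotated coding sequence. Pmaip1 held it at both residue 27 and residue 78 of 103, and its bases are not shown.

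Total counts ranged from 7187576 to 16829549 per library. The labelled states were checked against marker lists by summed CPM, the counts scaled to library size by the TMM method over the 9 libraries. Naive markers summed to 2870 to 2920 in naive, 1540 to 1580 in serum and 89.3 to 102 in EpiLC libraries. Formative epiblast markers ran the other way, with 71.8 to 80.3, 609 to 711 and 1620 to 1710. The core genes went apart: Pou5f1 averaged 873, 790 and 1010 CPM in naive, serum and EpiLC libraries, whereas Sox2 averaged 468, 509 and 61.8 CPM, and their sum ranged from 1040 to 1540. Of other cell types, primitive endoderm markers summed to at most 11.2 and blood cell markers to at most 0.491. In the order naive, serum and EpiLC, summed CPM was 34.2 to 41.5, 60 to 79.5 and 31 to 38.3 for fibroblast markers, 94.1 to 114, 12.1 to 15.4 and 12.2 to 14.4 for mesoderm markers, 24.1 to 27.4, 30.6 to 33.1 and 1.19 to 2.01 for neural markers, and 16 to 18.6, 7.47 to 8.15 and 0.251 to 0.434 for trophectoderm markers. Mitochondrial genes took 3.66% to 4.31% of the counts in mESC-ser and 5.86% to 7.98% in the other libraries. Within the fibroblast list, Thy1 averaged 3.05, 4.41 and 29.5 CPM and Col1a1 22.5, 49.6 and 1.47 CPM in that order of groups, so its similar naive and EpiLC sums hide opposite members. The neural list likewise held Sox1 at 24.1, 6.81 and 1.23 CPM and Pax6 at 1.69, 25.2 and 0.464 CPM. The part of these differences in the results was not tested, and in bulk RNA fewer cells of a type and less RNA per cell cannot be told apart.

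A gene was called at an edgeR quasi-likelihood adjusted p under 0.05 together with an absolute log2 fold change over 0.5. In mESC-ser against mESC-2i, 4 members rose (Mcl1, Bcl2l11, Bmf and Pmaip1) and 1 fell (Bid), against 56.2% of all 15728 tested genes called (25.9% higher and 30.3% lower). In EpiLC against mESC-2i, 4 members rose (Bax, Bak1, Bcl2l11 and Pmaip1) and 1 fell (Bid), against 69.8% of 15378 tested genes (32% higher and 37.8% lower). In EpiLC against mESC-ser, 4 rose (Bax, Bak1, Bbc3 and Pmaip1) and 4 fell (Bcl2l1, Mcl1, Bcl2l11 and Bmf), against 73.3% of 15345 (35.5% higher and 37.8% lower). The 5, 5 and 8 calls among 10 members thus lay below or near the background share of each comparison, so the counts are no result about the family, and what follows describes which members differed and by how much. CPM did not overlap between the groups for 6, 7 and 10 members, beside 70.7%, 81.8% and 85.7% of tested genes. The median log2 fold change of the members was 0.28, 0.23 and -0.004 in these comparisons, beside -0.04, -0.11 and -0.07 for all tested genes. Each culture state enters a pair of these comparisons, so they are not independent of each other.

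Scaling bears on this split. Under total-count scaling the median of all genes moved to -0.45 in EpiLC against mESC-2i and to -0.41 in EpiLC against mESC-ser, and the share of higher genes among all called ones from 45.9% to 33.7% and from 48.4% to 37.4%. The calls among members then became 3 higher and 2 lower in the first, with Bak1 lost and Bcl2l1 gained, and 1 higher (Bax) and 5 lower in the second, with Bcl2, Bcl2l1, Mcl1, Bcl2l11 and Bmf below. With offsets for gene length and GC content, 5 members were called in EpiLC against mESC-ser, with Bax and Pmaip1 higher and Bcl2l1, Mcl1 and Bmf lower.

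**Figure D1:**
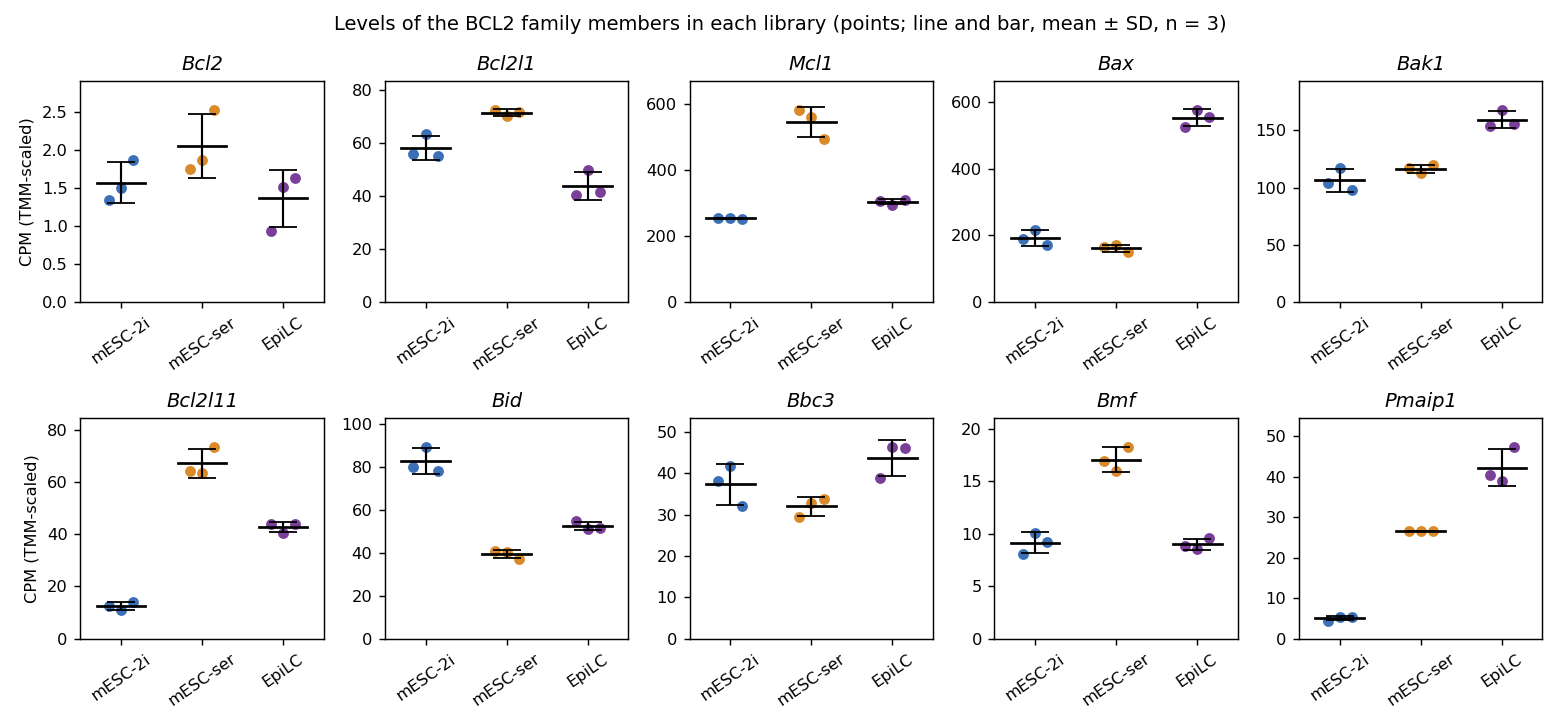
TMM-scaled CPM of each member in each of the 9 libraries (points), with the mean and SD of 3 libraries per state (line and bar), each axis starting at 0. Bax stands highest in EpiLC, Mcl1 in mESC-ser, Bid in mESC-2i, and Bcl2l11 and Pmaip1 are lowest in mESC-2i.

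Among the anti-apoptotic members, Mcl1 was the one that changed most, and it was highest in serum. MCL1 is a short-lived protein that binds BIM, NOXA and BAK, and its gene lies at chr3:95658788-95663176. Mcl1 stood at 256, 254 and 253 CPM in naive cells, at 583, 560 and 494 CPM in serum and at 308, 295 and 311 CPM in EpiLC. The 3 groups did not overlap. The serum libraries exceeded the naive ones by 1.04 on the log2 scale (SE 0.10, edgeR adjusted p = 1.06e-05), a 2.06-fold rise, and EpiLC fell below serum by 0.76 (SE 0.08, adjusted p = 2.56e-07). EpiLC against mESC-2i gave 0.24 (SE 0.08, adjusted p = 0.0209), under the fold threshold, and -0.10 under total-count scaling.

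Bcl2l1 encodes BCL-XL and lies at chr2:152780668-152831728. It stood at 56, 63.5 and 55 CPM in naive cells, at 72.5, 70 and 71.7 CPM in serum and at 40.3, 49.9 and 41.5 CPM in EpiLC. The order was serum, naive, EpiLC with no overlap of groups, but the naive to serum step was small. Bcl2l1 fell in EpiLC against mESC-ser by 0.61 on the log2 scale (SE 0.09, edgeR adjusted p = 1.31e-05). It was not called in mESC-ser against mESC-2i, at 0.24 (SE 0.10, adjusted p = 0.0519), nor in EpiLC against mESC-2i, at -0.42 (SE 0.11, adjusted p = 0.00558). The last was called at -0.76 under total-count scaling and at -0.52 without EpiLC replicate 2, the highest EpiLC library.

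Bcl2, the founding gene of the family, was barely transcribed in any state. Its counts were 11, 18 and 24 in naive cells, 25, 22 and 44 in serum and 7, 14 and 13 in EpiLC. The corresponding levels of 1.35 to 1.87, 1.75 to 2.53 and 0.94 to 1.63 CPM overlapped between naive cells and each other state, and EpiLC lay below serum. No comparison passed the test, with log2 fold changes of 0.32 (SE 0.26, edgeR adjusted p = 0.307) in mESC-ser against mESC-2i, -0.23 (SE 0.31, adjusted p = 0.509) in EpiLC against mESC-2i and -0.50 (SE 0.29, adjusted p = 0.117) in EpiLC against mESC-ser. These standard errors are above 0.25, so a change of moderate size was not detectable at this depth. The sign of each turned with length and GC offsets, to -0.12, 0.30 and 0.46.

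Per length, Mcl1 made up most of the anti-apoptotic transcripts. In RPKM (CPM per kilobase of exons) the means of naive, serum and EpiLC libraries were 74.3, 160 and 89.1 for Mcl1, 12.7, 15.6 and 9.57 for Bcl2l1, and 0.172, 0.224 and 0.149 for Bcl2. Mcl1 accounted for 85.3% ± 0.984 (SD, n = 3), 91% ± 0.751 and 90.2% ± 1.32 of the sum of the 3 genes. Bcl2 ranked between percentiles 25.7 and 27.7 of 17943 protein-coding genes by RPKM, and Mcl1 between percentiles 96.3 and 99.

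Of the effector genes, Bax set EpiLC apart more clearly than Bak1 did. BAX moves from the cytosol to mitochondria when activated, and its gene lies at chr7:45461697-45466898. Bax stood at 188, 217 and 170 CPM in naive cells, at 164, 171 and 150 CPM in serum and at 525, 576 and 556 CPM in EpiLC. Every EpiLC library was above every stem cell library, while naive and serum libraries overlapped. The rise was 2.85-fold over mESC-2i (log2 1.51, SE 0.11, edgeR adjusted p = 4.93e-07) and 3.63-fold over mESC-ser (log2 1.86, SE 0.08, adjusted p = 3.18e-12). With length and GC offsets these became 0.82 and 0.96 on the log2 scale, still called. Serum against naive gave -0.30 (SE 0.11, adjusted p = 0.0365), short of the fold threshold. An annotated gene model on the same strand, Gm45808, overlaps 192 bases of Bax exons, but it is not among the genes with deposited counts.

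Bak1, whose product sits in the mitochondrial membrane already, differed less. It lies at chr17:27019810-27029009 and stood at 104, 117 and 97.8 CPM in naive cells, at 117, 113 and 120 CPM in serum and at 154, 168 and 156 CPM in EpiLC. EpiLC libraries were the highest, and the stem cell groups overlapped. Bak1 rose in EpiLC by a log2 fold change of 0.57 over mESC-2i (SE 0.10, edgeR adjusted p = 0.000269) and of 0.53 over mESC-ser (SE 0.08, adjusted p = 8.05e-06), both just past the fold threshold. Neither call held with length and GC offsets (0.28 and -0.03) or with total-count scaling (0.23 and 0.19). The second was also lost with no filter (0.45), with at least 10 counts in every library (0.46), with all 9 libraries in one fit (0.46) and without EpiLC replicate 2 (0.498). Serum against naive gave 0.08 (SE 0.10, adjusted p = 0.485). The opposite-strand gene Ggnbp1, which overlaps its exons, held 32 to 139 counts per library, and without strand information its reads cannot be told apart from those of Bak1.

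By length-scaled level Bax was among the most abundant transcripts of all, at 121 ± 15.1 RPKM in naive cells, 103 ± 6.78 in serum and 351 ± 16.3 in EpiLC (SD, n = 3). Bak1 stood at 44.1 ± 4.09, 48.6 ± 1.47 and 66.2 ± 3.31 RPKM. Bax ranked between percentiles 98.2 and 99 of protein-coding genes in the 3 states.

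**Figure D2:**
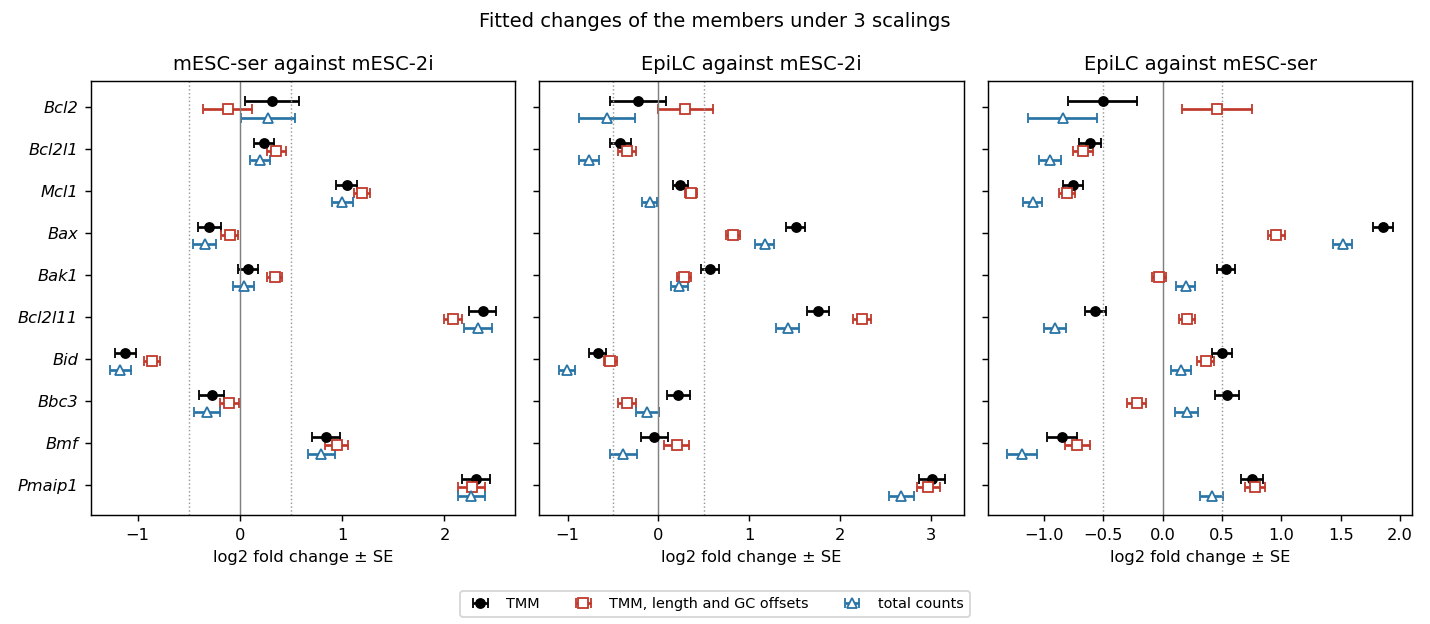
Log2 fold change (± SE) of each member in the 3 comparisons, fitted with TMM scaling (black), with length and GC offsets (red) and with total-count scaling (blue), with dotted lines at the fold threshold. The rises of Bcl2l11 and Pmaip1 over mESC-2i stay far right under all 3 settings, whereas Bak1, Bbc3 and Bcl2l11 in EpiLC against mESC-ser shift across the threshold or 0.

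The BH3-only genes held both the largest rises and a fall. Pmaip1 encodes NOXA, which binds MCL1 selectively and promotes its degradation, and lies at chr18:66458533-66465565. Pmaip1 stood at 4.42, 5.42 and 5.46 CPM in naive cells, at 26.5, 26.6 and 26.6 CPM in serum and at 40.5, 38.8 and 47.4 CPM in EpiLC. The naive libraries were lowest and the EpiLC libraries highest, with no overlap. Pmaip1 rose 4.96-fold in serum over naive cells (log2 2.31, SE 0.13, edgeR adjusted p = 2.79e-07) and 8.08-fold in EpiLC over naive cells (log2 3.02, SE 0.14, adjusted p = 2.41e-08). The further rise from serum to EpiLC was 1.69-fold (log2 0.75, SE 0.10, adjusted p = 1.64e-06), and 0.41 on the log2 scale, not called, under total-count scaling.

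Bcl2l11 encodes BIM, which binds all anti-apoptotic members and can activate BAX and BAK directly. It lies at chr2:128126038-128162547. Bcl2l11 stood at 12.4, 10.9 and 14 CPM in naive cells, at 64.3, 63.5 and 73.5 CPM in serum and at 43.9, 40.6 and 43.8 CPM in EpiLC. Both other states were well above naive cells, and no groups overlapped. The rise over mESC-2i was 5.18-fold in mESC-ser (log2 2.37, SE 0.13, edgeR adjusted p = 2.03e-07) and 3.39-fold in EpiLC (log2 1.76, SE 0.12, adjusted p = 4.04e-07). EpiLC against mESC-ser fell by 0.57 on the log2 scale (SE 0.09, adjusted p = 1.67e-05), but this fall depended on the setting: it was -0.497, not called, without mESC-ser replicate 3, the highest serum library, and it turned to 0.20 (adjusted p = 0.0125) with length and GC offsets.

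Bid was the BH3-only member that was highest in naive cells. BID links death receptors to mitochondria after cleavage by caspase 8, and its gene lies at chr6:120891930-120916853. Bid stood at 80.3, 89.6 and 78.3 CPM in naive cells, at 40.7, 40.6 and 37.4 CPM in serum and at 54.8, 51.3 and 51.8 CPM in EpiLC. Naive libraries were the highest and serum libraries the lowest, with no overlap. Bid fell by 1.12 on the log2 scale in serum (SE 0.10, edgeR adjusted p = 5.73e-06) and by 0.67 in EpiLC (SE 0.09, adjusted p = 5.12e-05), both against mESC-2i. EpiLC against mESC-ser gave 0.497 (SE 0.09, adjusted p = 4.38e-05), at the edge of the fold threshold, and it was called in 6 of the alternative fits, among them DESeq2 at 0.52. Bcl2l13 on the opposite strand overlaps 628 bases of Bid exons and held 349 to 1145 counts per library.

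Bmf, whose product BMF is held at the cytoskeleton by dynein light chain, followed serum. It lies at chr2:118528757-118549687 and stood at 8.1, 10.1 and 9.2 CPM in naive cells, at 16.9, 16 and 18.3 CPM in serum and at 8.86, 8.57 and 9.55 CPM in EpiLC. The serum libraries were above all others, and naive and EpiLC libraries overlapped. Bmf rose 1.79-fold in mESC-ser over mESC-2i (log2 0.84, SE 0.13, edgeR adjusted p = 0.000286) and fell by 0.85 on the log2 scale in EpiLC against mESC-ser (SE 0.12, adjusted p = 7.82e-06). EpiLC against mESC-2i gave -0.05 (SE 0.15, adjusted p = 0.776).

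Bbc3 encodes PUMA, a p53-induced protein that binds all anti-apoptotic members, and it had the narrowest range of the 10. It lies at chr7:16308393-16318205 and stood at 38.1, 41.9 and 32 CPM in naive cells, at 29.5, 32.8 and 33.8 CPM in serum and at 38.8, 46.5 and 46.2 CPM in EpiLC. Naive libraries overlapped with both other groups, and EpiLC lay above serum. EpiLC against mESC-ser rose by 0.54 on the log2 scale (SE 0.10, edgeR adjusted p = 8.51e-05). That call was lost under total-count scaling (0.20), with no filter (0.46), with at least 10 counts in every library (0.47), with all 9 libraries in one fit (0.47) and without mESC-ser replicate 1 (0.48), and the sign turned with length and GC offsets (-0.22). Serum against naive gave -0.28 (SE 0.13, adjusted p = 0.0742) and EpiLC against naive 0.22 (SE 0.13, adjusted p = 0.137).

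The composition of the BH3-only transcripts differed more than their sum. In RPKM Bid made up 50.7% ± 0.986 (SD, n = 3) of the 5 genes in naive cells, 23.5% ± 1.66 in serum and 25.6% ± 1.92 in EpiLC. The share of Bcl2l11 was 3.4% ± 0.686, 17.6% ± 1.1 and 9.2% ± 0.539, and that of Pmaip1 was 4.07% ± 0.566, 20.5% ± 0.506 and 26.6% ± 1.81. Naive cells thus held mostly Bid and Bbc3 transcripts, and in the other states Pmaip1 and Bcl2l11 took a larger part. Bbc3 held 38.1% ± 2.39, 31.7% ± 1.45 and 35.6% ± 2.73, and Bmf 3.78% ± 0.352, 6.84% ± 0.383 and 2.95% ± 0.0932.

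**Figure D3:**
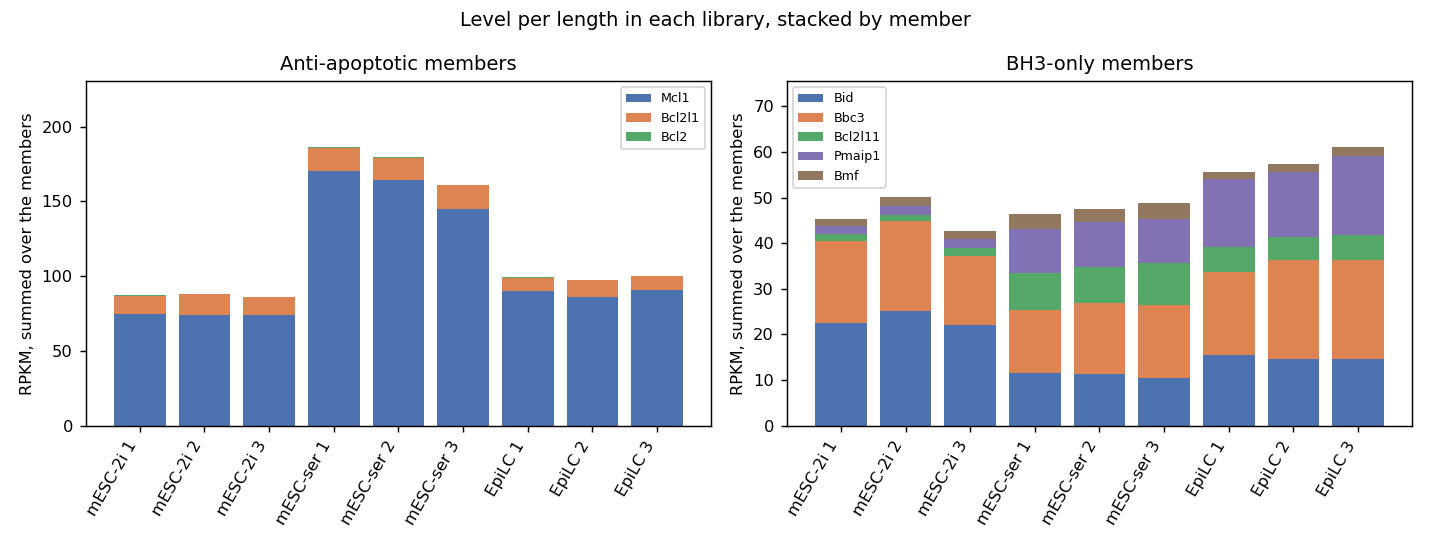
RPKM of the 3 anti-apoptotic members (left) and the 5 BH3-only members (right) in each library, stacked by gene, with axes starting at 0. Mcl1 fills most of each left bar and is largest in the mESC-ser libraries, and Pmaip1 and Bcl2l11 are thin layers in mESC-2i and thick ones in the other states.

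The order of levels per length also differed between states. In mESC-2i it ran Bax, Mcl1, Bak1, Bid, Bbc3 and Bcl2l1, followed by Pmaip1, Bmf and Bcl2l11, whose libraries overlapped at 1.36 to 2.00 RPKM, and Bcl2. In mESC-ser Mcl1 stood above Bax, Bcl2l1 and Bbc3 overlapped (15.3 to 15.8 and 13.9 to 15.9 RPKM), and Bid at 10.5 to 11.5 lay just above Pmaip1 at 9.68 to 9.75. In EpiLC the order was Bax, Mcl1, Bak1 and Bbc3, then Pmaip1 and Bid, which overlapped at 14.2 to 17.3 and 14.5 to 15.4 RPKM. The exonic length is that of all annotated transcripts of a gene, so these levels depend on which transcripts a state uses.

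Ratios within a library set the opposing roles against each other and do not depend on the scaling between libraries. The sum of Bax and Bak1 was 1.86, 2.11 and 1.72 times that of the 3 anti-apoptotic genes in the naive libraries, 0.819, 0.868 and 0.905 times in serum, and 4.01, 4.48 and 4.17 times in EpiLC, all in RPKM. Serum libraries were lowest and EpiLC libraries highest, with no overlap. Without division by length the means were 0.948 ± 0.0933 (SD, n = 3), 0.451 ± 0.0239 and 2.04 ± 0.107, in the same order.

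For the 5 BH3-only genes against the 3 anti-apoptotic genes the RPKM ratio was 0.519, 0.57 and 0.494 in naive cells, 0.248, 0.266 and 0.304 in serum and 0.562, 0.589 and 0.609 in EpiLC. Serum libraries lay below both other groups, which overlapped. The ratio of Bcl2l11 to Bcl2l1 was 0.123 ± 0.0234 in naive cells, 0.537 ± 0.0433 in serum and 0.564 ± 0.0865 in EpiLC (RPKM, SD, n = 3). Here the naive libraries alone were low, and serum and EpiLC overlapped. These ratios are given as descriptions. With 3 libraries against 3, an exact permutation test could not fall under 0.10, and none was run.

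**Figure D4:**
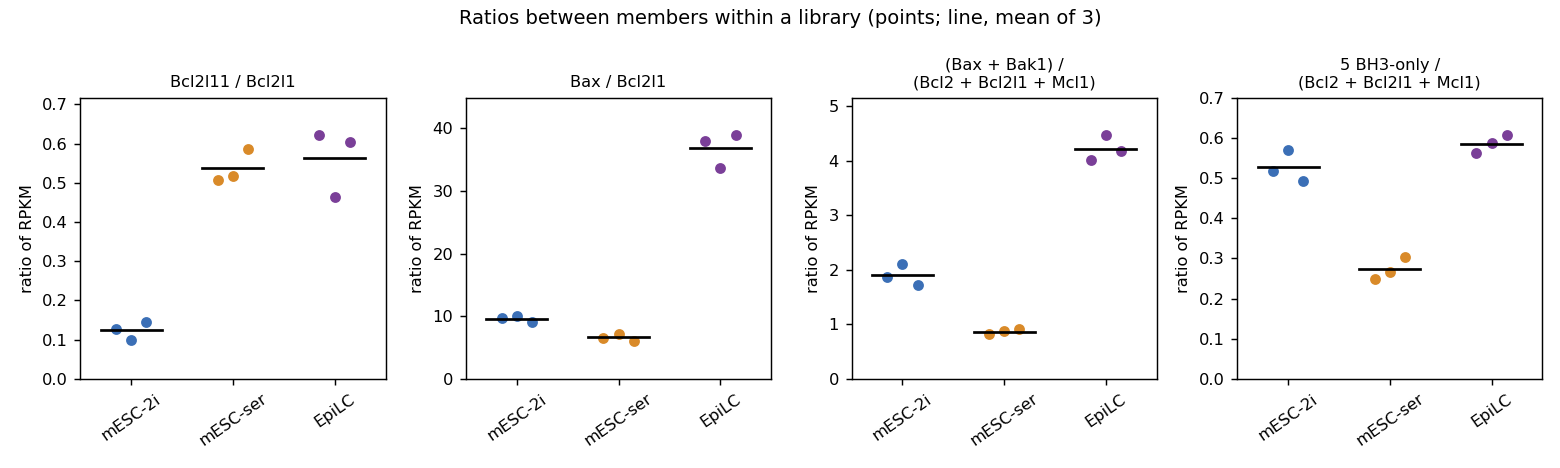
Ratios of RPKM within each library (points, with the mean of 3 as a line) for Bcl2l11 to Bcl2l1, Bax to Bcl2l1, both effectors to the anti-apoptotic genes, and the BH3-only genes to the anti-apoptotic genes, with axes starting at 0. Effector ratios are highest in EpiLC, the Bcl2l11 ratio is low in mESC-2i alone, and the BH3-only ratio is low in mESC-ser alone. No length and GC offsets were applied to these ratios.

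Other genes of the family and pathway were read from the same fits. Of 11 tested other BCL2 family genes, 6 rose and none fell in EpiLC against mESC-2i, and 9 rose and none fell in EpiLC against mESC-ser, with medians of 0.57 and 1.28 beside -0.11 and -0.07 for all genes, of which 32% and 35.5% were called higher. Bnip3, a BH3-like gene of mitochondria and mitophagy, had means of 16.6, 33.5 and 92.1 CPM in the naive, serum and EpiLC groups, and rose over mESC-2i by 0.94 in serum (SE 0.22, edgeR adjusted p = 0.00374) and by 2.44 in EpiLC (SE 0.14, adjusted p = 9.55e-08) on the log2 scale. Bok, an effector-like gene, was highest in EpiLC at 43 CPM against 14.9 and 10.5, a log2 rise of 1.52 over mESC-2i and 2.12 over mESC-ser, the latter 1.34 with length and GC offsets. In mESC-ser against mESC-2i 2 of 10 rose and 4 fell, beside 56.2% of all tested genes called. Among the falls were Bcl2l14 by 3.31 and the BH3-only gene Bad by 1.02 on the log2 scale. Bad rose by 1.28 in EpiLC against serum. Bcl2l12 rose by 0.57 in EpiLC against mESC-2i, a call lost with length and GC offsets (0.20), under total-count scaling (0.23) and without mESC-2i replicate 1 (0.46). DESeq2 called 7 and 9 rises and no fall in the EpiLC comparisons, and at an unadjusted edgeR p under 0.05 there was 1 lower gene in each. Under total-count scaling 4 rose and 2 fell in EpiLC against mESC-2i, and 8 rose and 2 fell in EpiLC against mESC-ser.

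Downstream of the mitochondria the direction was mixed. Of 15 apoptosome, caspase and nuclease genes, 2 rose and 5 fell in mESC-ser against mESC-2i, 4 rose and 4 fell in EpiLC against mESC-2i, and 6 rose and 4 fell in EpiLC against mESC-ser. Of all tested genes 56.2%, 69.8% and 73.3% were called in these comparisons, so the counts are no result about the list. Cycs, which encodes cytochrome c, stood at 39.4, 44.4 and 33.6 CPM in naive cells, 48.6, 48.4 and 40.2 in serum and 146, 164 and 162 CPM in EpiLC, and rose in EpiLC by 1.99 over mESC-2i (log2, SE 0.12, edgeR adjusted p = 1.12e-07) and by 1.87 over mESC-ser (SE 0.10, adjusted p = 1.26e-11).

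Within the apoptosome, the adaptor Apaf1 fell in EpiLC to 19.2 CPM from 45.8 in mESC-2i and 49.6 in mESC-ser, by 1.28 and 1.29 on the log2 scale, and the second was -0.33, not called, with length and GC offsets. The initiator Casp9 was highest in naive cells, at 46.3 CPM against 18 in serum (log2 -1.42, SE 0.10, edgeR adjusted p = 1.41e-06) and 20.8 in EpiLC (log2 -1.18, SE 0.10, adjusted p = 1.3e-06). Casp6, a caspase gene, fell in serum against naive cells (log2 -1.28, SE 0.20, edgeR adjusted p = 0.000302). Endog, a mitochondrial nuclease, rose in EpiLC by 2.56 over mESC-2i and by 2.86 over mESC-ser, or by 1.68 and 1.74 with the offsets. Not called were Cycs and Apaf1 in serum against naive cells, at 0.17 and 0.06, and Casp9 in EpiLC against serum at 0.29. Cycs has processed copies in the genome, and how reads with several alignments were counted is not given in the sources used here.

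**Figure D5:**
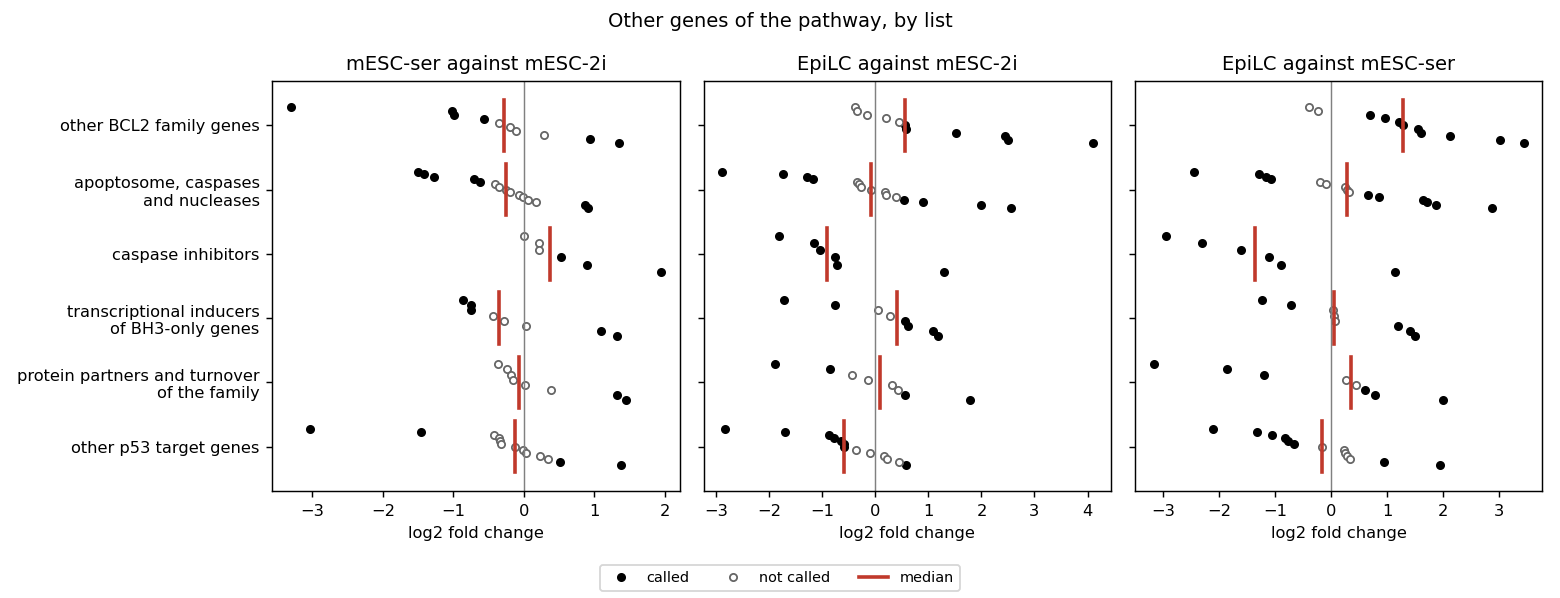
Log2 fold change of each tested gene of the 6 pathway lists in the 3 comparisons (filled, called; open, not called), with the median of each list in red. In both EpiLC comparisons the medians lie right of 0 for other BCL2 family genes (0.57 and 1.28) and left of 0 for caspase inhibitors (-0.90 and -1.35).

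Of the 6 caspase inhibitors, all tested, 5 fell and 1 rose in each EpiLC comparison, with medians of -0.90 and -1.35, beside 37.8% of all tested genes called lower in each. With length and GC offsets the falls were 2 and 3 of 6, with 1 rise in each and medians of -0.30 and -0.61. In mESC-ser against mESC-2i 3 rose and none fell, also by DESeq2, with 0 lower genes at an unadjusted edgeR p under 0.05, and 1 rose and none fell with the offsets. Of all tested genes 25.9% were called higher in that comparison. Xiap, which blocks caspases, averaged 53.6, 80.5 and 15.4 CPM and fell in EpiLC by 1.82 on the log2 scale against mESC-2i (SE 0.13, edgeR adjusted p = 4.07e-07) and by 2.30 against mESC-ser (SE 0.10, adjusted p = 2.33e-12), the latter by 1.07 with the offsets. Its 0.53 in serum over naive cells fell short of the threshold under upper-quartile (0.49) and total-count scaling (0.48) and without mESC-2i replicate 2 (0.45), and turned to -0.21 with length and GC offsets. Birc6 averaged 103, 417 and 51.1 CPM, and its log2 change in EpiLC against mESC-2i was -1.04, or -0.11, not called, with these offsets. Cflar, the gene of the caspase 8 inhibitor FLIP, rose by 0.89 in serum and fell by 1.61 in EpiLC against serum, and was not called with the offsets in either (0.26 and -0.31). Birc5, which encodes the mitotic protein survivin, was the 1 that rose in EpiLC, by 1.30 over mESC-2i and 1.14 over mESC-ser.

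Of 8 tested transcriptional inducers of BH3-only genes, 2 rose and 3 fell in serum against naive cells, 4 rose and 2 fell in EpiLC against naive cells, and 3 rose and 2 fell in EpiLC against serum. The shares of all tested genes called were 56.2%, 69.8% and 73.3%, so these counts are no result about the list. Trp53, the p53 gene, stood at 316, 333 and 354 CPM in naive cells, at 339, 344 and 378 CPM in serum and at 343, 338 and 365 CPM in EpiLC. The groups overlapped, and the log2 fold changes were 0.02 (SE 0.10, edgeR adjusted p = 0.834) for serum and 0.04 (SE 0.09, adjusted p = 0.686) for EpiLC against mESC-2i and 0.06 (SE 0.08, adjusted p = 0.463) for EpiLC against serum. Foxo1 and Foxo4, FOXO factors that activate Bcl2l11 and Bbc3, rose in serum by 1.32 and 1.09, Foxo3 fell in EpiLC by 1.72 against naive cells and 1.24 against serum, and Foxo4 rose in EpiLC by 1.09 over naive cells. Trp73, a homologue of the p53 gene, rose in EpiLC by 1.182 and 1.503 against mESC-2i and mESC-ser. Atf4, a stress factor upstream of Pmaip1, fell in serum by 0.87 and Ddit3 rose by 1.41 in EpiLC against serum.

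Of 13 other p53 target genes, 2 rose and 2 fell in serum against naive cells, 1 rose and 7 fell in EpiLC against naive cells, and 2 rose and 6 fell in EpiLC against serum. The balance depended on the setting: with length and GC offsets it was 2 rises and 5 falls in EpiLC against naive cells, and 4 rises and 2 falls in EpiLC against serum. Of all tested genes, 56.2% were called in serum against naive cells, and 69.8% and 73.3% in the EpiLC comparisons. Cdkn1a, the p21 gene, averaged 339, 42.9 and 48.3 CPM, and fell from mESC-2i by 3.04 in serum (log2, SE 0.10, edgeR adjusted p = 1.5e-08) and by 2.83 in EpiLC (SE 0.10, adjusted p = 4.9e-09). Trp53inp1 fell in EpiLC by 1.71 against naive cells and by 1.31 against serum, the latter not called at -0.47 with length and GC offsets. Sesn1, a sestrin gene, fell by 0.88 in EpiLC against naive cells. Phlda3, which encodes an inhibitor of AKT, fell by 1.46 in serum against naive cells and rose by 1.95 in EpiLC against serum (1.05 with the offsets), while Perp rose by 1.38 and fell by 2.11 in these comparisons. The p53 targets Pmaip1, Bax and Bbc3 were not called alike against naive cells. Pmaip1 rose over naive cells in both other states, Bax was called only in EpiLC, and Bbc3 in neither state. In EpiLC against serum each of them was called higher. Of these calls, that of Bbc3 was lost with length and GC offsets, and those of Bbc3 and Pmaip1 under total-count scaling.

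The 8 genes of protein partners and turnover had 2 rises and no fall in serum against naive cells (the same by DESeq2, with 2 lower genes at an unadjusted edgeR p under 0.05), 2 rises and 2 falls in EpiLC against naive cells, and 3 rises and 3 falls in EpiLC against serum, where 69.8% and 73.3% of all tested genes were called. In serum against naive cells 56.2% of all tested genes were called, and with length and GC offsets the list had 1 rise and 1 fall. The split depended on the setting, with 4 rises and 1 fall in both EpiLC comparisons under length and GC offsets, and 1 rise and 3 falls in both under total-count scaling. The ubiquitin ligase genes Huwe1 and Fbxw7 and the deubiquitinase gene Usp9x act on the stability of MCL1. Huwe1 rose in serum by 1.46 (0.75 with the offsets) and fell in EpiLC against serum by 1.85, or by 0.28 (not called) with length and GC offsets. Usp9x rose in serum by 1.32, not called at 0.49 with the offsets, and fell in EpiLC by 1.89 against mESC-2i and 3.17 against mESC-ser, or by 1.21 and 1.63 with the offsets. Fbxw7 fell by 0.85 in EpiLC against naive cells, not called at -0.43 with the offsets. Dynll1, a dynein light chain gene whose product holds BIM, averaged 164, 153 and 572 CPM and rose in EpiLC by 1.78 over mESC-2i (SE 0.10, edgeR adjusted p = 9.39e-08) and by 1.99 over mESC-ser (SE 0.08, adjusted p = 1.44e-12).

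Genes with the most similar pattern were sought for the 3 members with the widest range of group means, among 11886 genes and over the 9 libraries. Likeness was the root mean square difference of log2 CPM after centring each gene. For Pmaip1 these were Sema6a (0.13) and Pdlim7 (0.13), at 6.34, 28.6 and 46.3 CPM and at 19.4, 94.1 and 150 CPM in naive, serum and EpiLC libraries. For Bcl2l11 they were Nefh (0.12), a neurofilament gene, and Nr6a1 (0.12), a nuclear receptor gene, and for Bax they were Prdx5 (0.05), a peroxiredoxin gene, and Ubl4a (0.05). With 3 states, any gene with the same 3 group levels ranks high.

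Promoter windows from 250 bases before to 50 after each start (RefSeq, GRCm38.p6) were available for 9 members, and motifs were searched on both strands. The FOXO motif TGTTTAC stood in 1 of 2 windows of Bcl2l11 and 1 of 3 of Bbc3, and in windows of 4.05% of 27025 genes. The E-box CACGTG stood in the window of Bax and in 1 of 3 of Bbc3, against 8.09% of genes, and a p53 half-site in the window of Bax and in 1 of 3 of Bmf, against 9.55%. The cyclic AMP response element TGACGTCA was in none of the members' windows and in those of 2.03% of genes. A match describes these letters only.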

How the data were processed

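RNA-seq libraries of E14 cells in 3 states were prepared with a poly-A kit that does not keep strand and read from 1 end over 50 bp. Per the processing notes of the submitters, the authors used Trim Galore 0.6.6 for trimming, aligned reads to mm10 with HISAT2 2.2.1 and counted them per gene with featureCounts of Subread 2.0.1. The deposited values are raw counts per Ensembl gene, and the annotation release, strand setting and treatment of multi-mapping reads are not given in the sources used here.

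Symbols and exonic lengths came from GENCODE M21 (36429 of 38293 identifiers matched, 95.1%). For each pair of states, its 6 libraries alone entered a fit in edgeR 4.0.16 (limma 3.58.1, R 4.3.3), using filterByExpr, TMM scaling, the quasi-likelihood F-test and Benjamini-Hochberg adjustment over all tested genes. Standard errors were taken from the F statistic. The fold threshold of 0.5 is that of the study, which combined it with a nominal p in its test of lactate-treated myoblasts. For mESC-ser against mESC-2i the study gave the same fold threshold with an FDR under 0.05, where it set histone lactylation changes beside expression changes. Length and GC offsets took out of each library a natural-spline dependence (5 degrees of freedom) on the logarithm of exonic length and on GC content. Other alternatives were scaling by RLE, upper quartiles or total counts, other filters, DESeq2 1.42.0, all 9 libraries in one fit, other thresholds, a replicate block and leaving out each library. The fitting steps were run on simulated counts of mESC-ser against mESC-2i in which few genes changed. These simulations do not cover the EpiLC comparisons or a state in which most genes are called.

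The members and gene lists were chosen with earlier results of these data known. All members are described. Of the pathway lists, Trp53, Apaf1, Casp9 and Cycs are always named, with up to 3 called genes per list and comparison of the largest change, with at least 100 mean counts in the higher group and no overlap of groups. Bcl2a1a and Bcl2a1d were not analysed here, and some genes that this rule names are not reported here.

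Same-numbered libraries of mESC-ser and mESC-2i deviated together from their group means (correlations of 0.144, 0.199 and 0.363 across genes). Different-numbered libraries gave -0.298 to 0.16, and mESC-ser replicate 1 was closer to mESC-2i replicate 2 than to replicate 1. The numbers may thus pair these libraries, but no label states the meaning of a number. A pairing entered only as the alternative with a replicate block. Replicates differed by more than sampling noise (chi-square per degree of freedom 1.66 to 30.5). Total counts were 7187576 to 16829549 per library, without molecular identifiers.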

Additional observations from a re-analysis of the deposited data

How the results depend on the processing

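In mESC-ser against mESC-2i, the 5 members called were the same 5 under every scaling, filter, tool and offset and without each library in turn (5 to 5). Leaving out 1 library gave 5 to 6 calls in EpiLC against mESC-2i and 7 to 9 in EpiLC against mESC-ser. At an absolute log2 fold change over 1, the calls fell to 3 and to 1 in these comparisons. Length and GC offsets left 5 calls in EpiLC against mESC-ser, with or without a replicate block. The replicate block alone gave 5, 5 and 8 calls, of the same members as without it. Same-numbered libraries correlated at 0.0147 to 0.128 in EpiLC against mESC-2i, and different-numbered ones at -0.131 to 0.0117. In EpiLC against mESC-ser these ranges were 0.0127 to 0.0362 and -0.041 to 0.0253. The values are small, and whether the numbers mark pairs here is not known.

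With the offsets, and in brackets with offsets and a replicate block, signs turned for Bcl2 (-0.118 [-0.107]) in mESC-ser against mESC-2i; for Bcl2 (0.297 [0.315]), Bbc3 (-0.349 [-0.348]) and Bmf (0.199 [0.203]) in EpiLC against mESC-2i; and for Bcl2 (0.457 [0.468]), Bak1 (-0.03 [-0.031]), Bcl2l11 (0.205 [0.208]) and Bbc3 (-0.219 [-0.224]) in EpiLC against mESC-ser. Bmf in EpiLC against mESC-2i, close to 0, also turned with RLE (0.019), DESeq2 (0.02) and without mESC-2i replicate 2 (0.067, range over libraries left out -0.086 to 0.067), and Mcl1 (-0.096) and Bbc3 (-0.121) turned with total counts.

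The same alternatives were added for the named pathway genes after their values were seen: 966 values stayed on the same side of the threshold, 23 lost a call and 19 changed sign. With the offsets, Apaf1 (-0.379 [-0.377]) and Xiap (-0.215 [-0.215]) turned in mESC-ser against mESC-2i, and Trp53 (-0.04 [-0.04]) in EpiLC against mESC-ser. Apaf1 also turned without mESC-ser replicate 3 (-0.005) or mESC-2i replicate 2 (-0.016), in a range of -0.016 to 0.188. Casp9 turned with total counts in EpiLC against mESC-ser (-0.05). Trp53, close to 0 throughout, turned with total counts (-0.02, -0.298 and -0.278 in the 3 comparisons in the order above), with upper quartiles (-0.01) and without mESC-ser replicate 3 (-0.013) or mESC-2i replicate 1 (-0.004; range -0.013 to 0.085) in the first, with at least 10 counts in every library (-0.019 and -0.011) in the others, and with no filter (-0.023) and all 9 libraries (-0.009) in the last. The cause of these shifts was not tested. Depth limits Bcl2 above all, which could not be tested with at least 10 counts in every library in the EpiLC comparisons.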
